A study of Homo sapiens with 6 samples.

Results

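The 40 genes described here encode the enzymes of glycolysis and the best known targets of the hypoxia-inducible factors (HIF). They were taken by symbol from a fixed list, and all 40 were found among the 18056 genes of the deposited table. They fall into 4 roles: 17 glycolytic enzymes from hexokinase to lactate dehydrogenase, 4 regulators of glycolytic flux, 4 genes of oxygen sensing and 15 further HIF targets outside glycolysis. All 40 passed the filter on low counts, which 13842 genes of the table passed, so none was lost to it. Gene expression was measured by RNA sequencing of polyadenylated RNA in human forebrain organoids, which are three-dimensional cultures grown towards dorsal forebrain tissue. The stem cells behind them were those of DYR0100, an established human line of induced pluripotent cells, with a wild-type genotype. A first group of 3 libraries came from organoids given vehicle and the other group of 3 from organoids given Aβ42, an amyloid-β peptide, at 5 µM over 6 days. The labels place the 6 libraries in 1 batch. The series design calls the 3 libraries of a group independent biological replicates, and every library comes from the same cell line. The comparison asks which of these transcripts differ between organoids with and without the peptide.

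Glycolysis splits glucose into pyruvate in the cytosol, and lactate dehydrogenase interconverts pyruvate and lactate. HIF is a pair of an oxygen-labile alpha subunit (HIF1A or EPAS1) and a stable beta subunit. In well-oxygenated cells the prolyl hydroxylases of the EGLN family mark the alpha subunit for destruction. When oxygen is short the alpha subunit persists, binds a short DNA motif near target genes and raises transcription of most glycolytic enzymes together with genes for blood vessel growth, mitochondrial turnover and matrix modification. Organoids have no blood vessels, and the oxygen that reaches their cells comes by diffusion.

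Libraries summed to between 16465390 and 16742958 estimated counts, with a median of 495.5 to 515.9 for a tested gene. Counts of the 40 genes in a library ran from 4 (CA9) to 23213 (GAPDH), so counting error was largest for CA9, ADM and ANKRD37. Values per library are given below as CPM (TMM-normalised counts scaled to a common library total), and levels of different genes are compared only as TPM, which is scaled for gene length. The forebrain genes EMX1, EMX2, LHX2 and TBR1 were present in all 6 libraries, with LHX2 at 156 ± 3.32 CPM in vehicle and 154 ± 8.09 CPM in Aβ42 (SD, n = 3 each). TBR1 was at 228 ± 6.18 and 201 ± 2.41 CPM, a log2 fold change of -0.18 ± 0.04 (adjusted p = 0.0734 in edgeR, 0.0203 with the block). Of the 13842 tested genes, 0 passed an adjusted p of 0.05 in edgeR's quasi-likelihood test, 0% of the total, with a smallest adjusted p of 0.0684. At an unadjusted p under 0.05, 12.4% of tested genes were higher with Aβ42 and 11.5% were lower.

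Read against that background, most of the 40 genes had higher values with Aβ42 than with vehicle. Log2 fold changes were above 0 for 35 of them and below 0 for 5, with a median of 0.29 where the median of all tested genes was 0.00. In edgeR's test 13 were higher and 1 was lower at an unadjusted p under 0.05, and 0 passed after Benjamini-Hochberg adjustment over all 13842 genes (smallest adjusted p 0.0734, P4HA2). The other tools gave 0 with limma-voom and with limma on TPM, 6 with DESeq2, which called 2.77% of all tested genes higher, and 8 with limma-voom and quality weights. The last of these called 7 of the 40 higher and 1 lower, beside 9.04% and 9.33% of all tested genes. The groups did not overlap for 13 genes. The 12 whose Aβ42 libraries all lay above all vehicle libraries, beside 13.6% of all tested genes, were ALDOA, PGK1, PGAM1, ENO1, PKM, LDHB, PDK1, PDK3, VEGFA, P4HA1, P4HA2 and KDM3A. HIF1A was the 1 gene whose Aβ42 libraries all lay below, beside 13.4% of all tested genes.

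**Figure D1:**
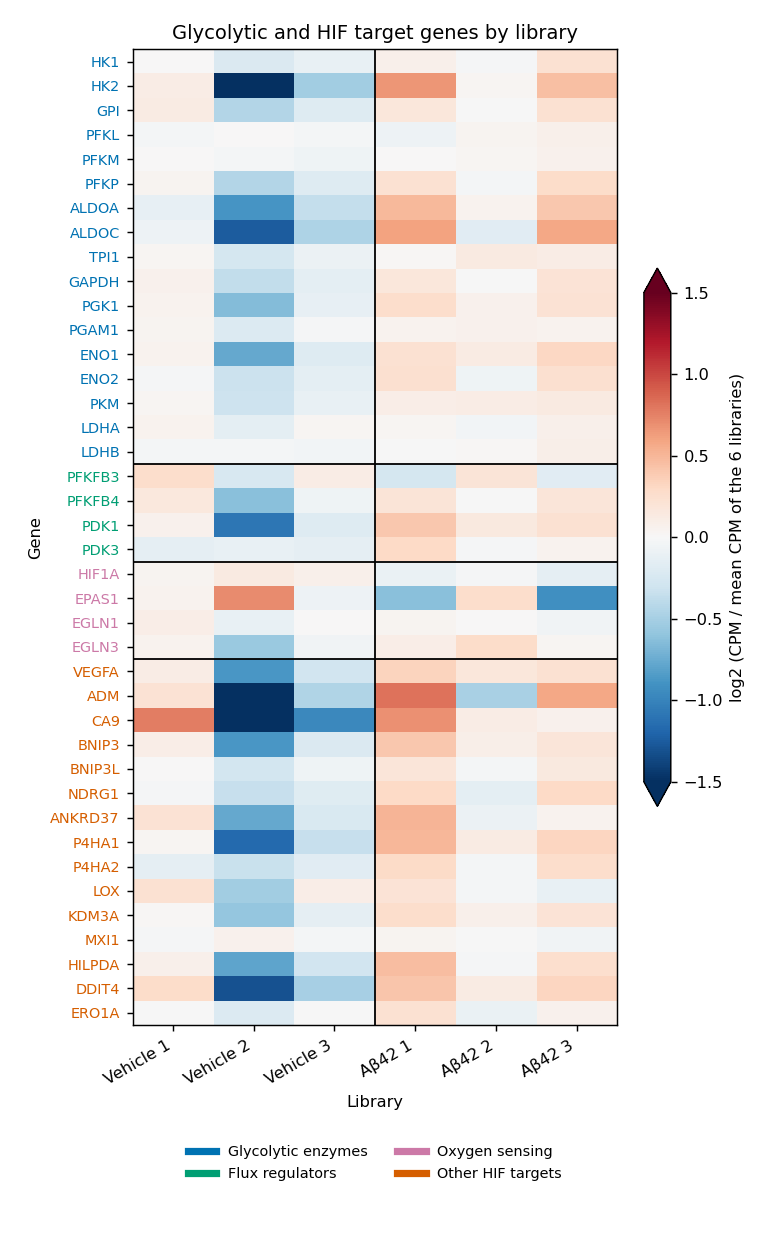
Each row is a gene, grouped by role, and each column is a library. Colour shows the log2 ratio of the library's CPM to the mean CPM of the 6 libraries, limited to 1.5 in either direction. Vehicle replicate 2 is the bluest column for most enzymes and HIF targets, and HIF1A and EPAS1 run the other way.

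Libraries with the same replicate number deviated together from their group means, but numbers 1 and 3 were not told apart. A second fit took the replicate number as a blocking factor. The labels state no such block and the pairing was read from these same data, so every p-value with the block depends on it. With this block 16 of the 40 were higher and 2 were lower at an adjusted p under 0.05, beside 7.12% and 7.05% of all tested genes, and the median of the 40 was 0.30. The 16 were 9 enzymes, PDK3 and 6 further HIF targets, and the 2 lower genes were HIF1A and EPAS1. All other members had an adjusted p of at least 0.05 with the block, also where that value is not printed below. Within pairs of the same number, 29 of the 40 were higher with Aβ42 in all 3 pairs, beside 25.6% of all tested genes. HIF1A and EPAS1 were lower in all 3, beside 3400 of the 13842 tested genes. Genes whose groups did not overlap, HIF1A among them, keep their direction in any pairing.

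Vehicle replicate 2 was low for these genes. That was known from these same data when the genes were listed, so the counts here describe it and do not test it. This library held the lowest of the 3 vehicle values for 33 of the 40, where it did so for 35.1% of all tested genes. It held the lowest value of all 6 libraries for 32, where that held for 22.3% of all tested genes. Relative to the other vehicle libraries its median log2 difference was -0.38 over the 40 genes, -0.26 over the enzymes and -0.68 over the further HIF targets, and 0.00 over all tested genes. Without this library the median fold change of the 40 genes was 0.16 in place of 0.29, with 34 above 0 and 6 below. At an unadjusted p, 13 were then higher and 1 lower, beside 7.25% and 6.50% of all tested genes, and 0 of the 40 had an adjusted p under 0.05 in edgeR's test. Each of the other libraries also moved these counts. With vehicle replicate 1 left out, 29 of the 40 had an unadjusted p under 0.05 in either direction (21.6% of all tested genes), and 9 did when vehicle replicate 3 was left out (17.6%). Leaving out Aβ42 replicate 1 gave 5 (15.1%), and leaving out Aβ42 replicate 3 gave 4 (13.4%). Without Aβ42 replicate 2, 6 of the 40 were higher and 2 lower at an adjusted p under 0.05, beside 11.5% and 11.6% of all tested genes. Without both libraries numbered 2, 16 were higher and 3 lower after adjustment, beside 8.19% and 8.50%, with a median of 0.24.

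**Figure D2:**
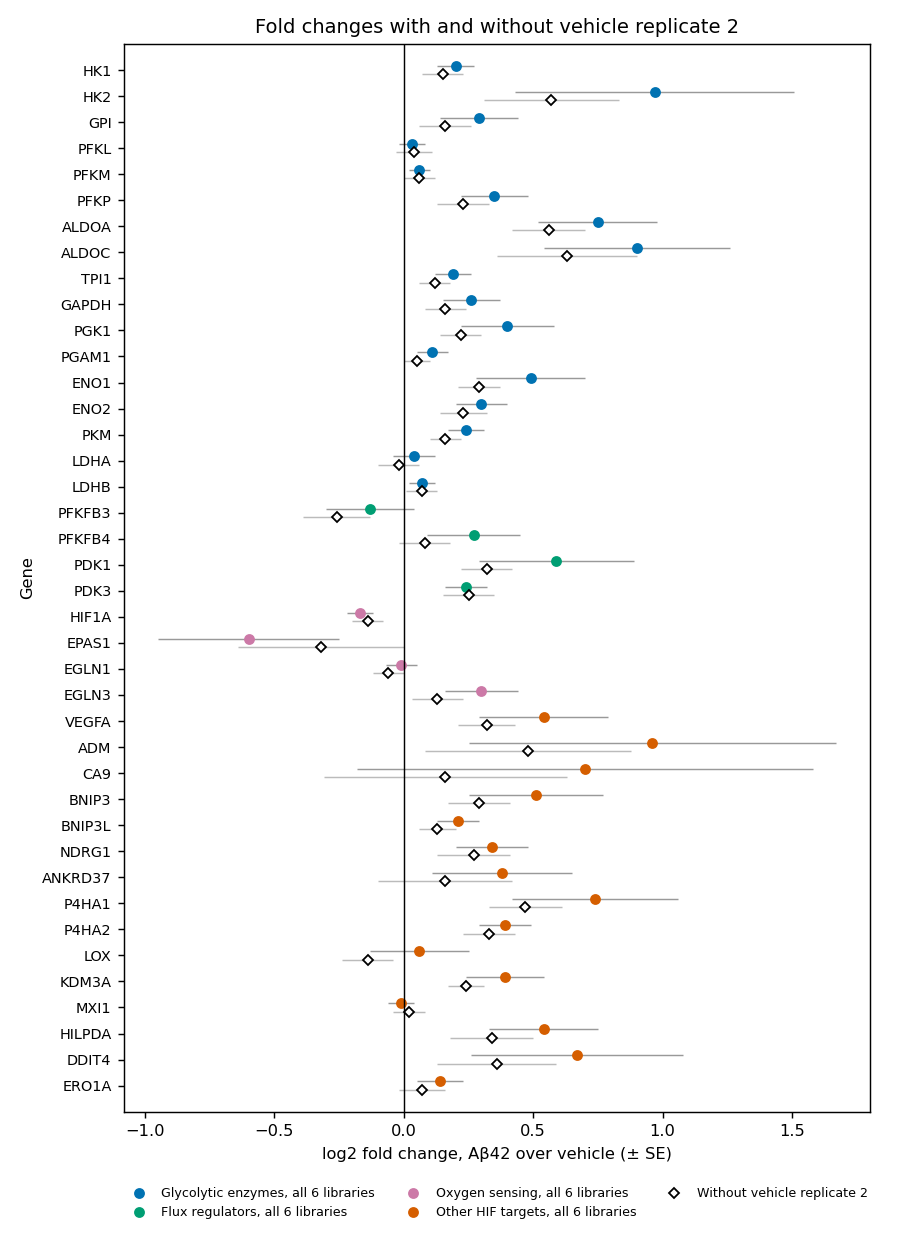
The horizontal axis is the log2 fold change of Aβ42 over vehicle with its standard error, and each row is a gene. Filled circles are fits of all 6 libraries coloured by role, and open diamonds leave out vehicle replicate 2. Most diamonds lie to the right of 0 and closer to it than the circles, with medians of 0.16 and 0.29.

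Among the 17 glycolytic enzymes every log2 fold change was above 0, from 0.03 (PFKL) to 0.97 (HK2), with a median of 0.26. At an unadjusted p under 0.05, 7 were higher (12.4% of all tested genes) and 0 lower: HK1, PFKP, ALDOA, TPI1, GAPDH, ENO2 and PKM. None of the 17 passed adjustment in edgeR's test, and 5 did in DESeq2 beside 2.77% of all tested genes (PFKP, ALDOA, GAPDH, ENO2 and PKM). In the blocked fit 9 passed, beside 7.12%: HK1, GPI, PFKP, ALDOA, ALDOC, GAPDH, PGK1, ENO2 and PKM. Without vehicle replicate 2 the median was 0.16, with 16 of 17 above 0 and 6 of them at an unadjusted p under 0.05, beside 7.25% of all tested genes. Together the 17 enzymes took 0.955%, 0.738% and 0.861% of summed TPM in the 3 vehicle libraries and 1.04%, 0.953% and 1.04% in the Aβ42 libraries. The groups overlapped by a narrow margin there (exact two-sided permutation test, p = 0.2, where 3 against 3 libraries cannot give less than 0.1).

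Hexokinase traps glucose in the cell as its phosphate. HK1, the form that most tissues use (Entrez gene 3098), was measured at 308, 264 and 285 CPM in the vehicle libraries, in replicate order, and at 324, 303 and 359 CPM in the Aβ42 libraries. Aβ42 replicate 2 fell just below vehicle replicate 1 while the other two lay above the vehicle range, and the log2 fold change was 0.20 ± 0.07 (SE; adjusted p = 0.135 in edgeR, 0.0213 with the block). HK2, the form that HIF is known to induce, is described because its fold was the largest of the 40, a choice made after its values were seen. Its vehicle values were 55.7, 13.0 and 36.0 CPM and its Aβ42 values 81.4, 52.6 and 70.7 CPM. The vehicle libraries spread widely, and Aβ42 replicate 2 lay below vehicle replicate 1. The log2 fold change of 0.97 ± 0.54 had an adjusted p of 0.357 in edgeR and 0.251 with the block. HK2 stood at 0.57 without vehicle replicate 2 and at 1.48 without vehicle replicate 1. GPI, which isomerises glucose phosphate, had a log2 fold change of 0.29 ± 0.15 (adjusted p = 0.29 in edgeR, 0.0215 with the block), which was 0.16 without vehicle replicate 2 and 0.45 without vehicle replicate 1. HK1 was at 0.15 without vehicle replicate 2 and at 0.13 without Aβ42 replicate 3.

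Phosphofructokinase commits sugar to glycolysis and is a tetramer of liver-type, muscle-type and platelet-type subunits. The platelet-type PFKP had a log2 fold change of 0.35 ± 0.13 (adjusted p = 0.174 in edgeR, 0.00131 with the block), or 0.23 without vehicle replicate 2. PFKL and PFKM had log2 fold changes of 0.03 ± 0.05 and 0.06 ± 0.04. The sign for PFKL was below 0 on the TPM scale, at -0.02, so no direction holds for it.

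Aldolase splits the doubly phosphorylated sugar. ALDOA (Entrez gene 226), the main form in most cells, is shown in full because its adjusted p with the block was the smallest of the 40, a choice made after its values were seen. It was measured at 381, 225 and 324 CPM in vehicle and at 581, 432 and 549.8 CPM in Aβ42. Every Aβ42 library lay above every vehicle library, so any pairing would be higher with Aβ42. The 3 pairs of the same number differed by 0.61, 0.94 and 0.76 on the log2 scale. The log2 fold change was 0.75 ± 0.23 (adjusted p = 0.147 in edgeR, 3e-06 with the block), and without vehicle replicate 2 it was 0.56. The adjusted p for ALDOA ranged from 3e-06 to 0.385 over 18 alternatives. ALDOC, the form known from brain, had a log2 fold change of 0.90 ± 0.36 (adjusted p = 0.222 in edgeR, 2e-05 with the block). Without vehicle replicate 2 the fold of ALDOC was 0.63 (adjusted p = 0.375 in edgeR).

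The later steps of the pathway turn triose phosphates into pyruvate. TPI1, triose phosphate isomerase (Entrez gene 7167), was at 256, 209 and 235 CPM in vehicle and 254, 275 and 271 CPM in Aβ42. Aβ42 replicate 1 lay just below vehicle replicate 1, and the log2 fold change was 0.19 ± 0.07 (adjusted p = 0.139 in edgeR, 0.0635 with the block). GAPDH, the dehydrogenase often used as a reference gene, was at 1267, 939.5 and 1091 CPM in vehicle and 1359, 1209.6 and 1392 CPM in Aβ42. Its log2 fold change was 0.26 ± 0.11 (adjusted p = 0.18 in edgeR, 0.0046 with the block). PGK1 (0.40 ± 0.18, adjusted p = 0.253 in edgeR, 0.0244 with the block) and PGAM1 (0.11 ± 0.06, adjusted p = 0.27 in edgeR, 0.167 with the block) make and rearrange phosphoglycerate. Without vehicle replicate 2 these folds were 0.12 (TPI1), 0.16 (GAPDH), 0.22 (PGK1) and 0.05 (PGAM1).

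Enolase makes phosphoenolpyruvate. ENO1, the widespread form, had a log2 fold change of 0.49 ± 0.21 (adjusted p = 0.247 in edgeR, 0.178 with the block), or 0.29 without vehicle replicate 2. ENO2 (Entrez gene 2026), the form typical of neurons, was at 450.4, 366 and 412 CPM in vehicle and 539, 436 and 538 CPM in Aβ42. Aβ42 replicate 2 lay within the vehicle range and the other two Aβ42 libraries above it. For ENO2 the fold change on the log2 scale was 0.30 ± 0.10 (adjusted p = 0.13 in edgeR, 0.00111 with the block), or 0.23 without vehicle replicate 2. PKM (Entrez gene 5315), the pyruvate kinase of brain and dividing cells, was at 487, 386 and 441 CPM in vehicle and 514, 516 and 523 CPM in Aβ42. The Aβ42 libraries were close together and above all vehicle libraries. Its log2 fold change was 0.24 ± 0.07 (adjusted p = 0.107 in edgeR, 0.013 with the block), the smallest p among the enzymes in the fit without the block. Without vehicle replicate 2 the fold of PKM was 0.16.

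Lactate dehydrogenase transcripts differed little between the groups. LDHA, a textbook HIF target (Entrez gene 3939), was at 27.3, 23.9 and 27.0 CPM in vehicle and 26.9, 25.6 and 27.8 CPM in Aβ42. The groups overlapped, the log2 fold change was 0.04 ± 0.08 (adjusted p = 0.792 in edgeR), and the value was -0.02 both without vehicle replicate 2 and on the TPM scale. LDHB, the subunit that favours turning lactate into pyruvate (Entrez gene 3945), was at 424, 424 and 419 CPM in vehicle and 431, 438 and 459.5 CPM in Aβ42. The groups did not overlap, yet the log2 fold change was only 0.07 ± 0.05 (adjusted p = 0.382 in edgeR), or 0.04 without Aβ42 replicate 3. Per length, LDHB was at 1053 ± 11.6 TPM and LDHA at 30.3 ± 2.05 TPM in vehicle (SD, n = 3). Processed pseudogene copies of LDHA, LDHB and several other enzymes exist, and how the authors' counting treated shared reads is not given in the sources used here, so the levels of these genes are uncertain.

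Isoenzyme shares were compared as percent of the family's summed TPM. HK2 made up 6.78% ± 3.59 of hexokinase in vehicle and 11.4% ± 1.98 in Aβ42, and PFKP made up 30.9% ± 3.68 and 35.6% ± 2.8 of phosphofructokinase (SD, n = 3 each). The share of ALDOC in aldolase was 5% ± 0.711 and 5.57% ± 0.766, that of ENO2 in enolase 36.4% ± 4.32 and 32.9% ± 1.52, and that of LDHA in lactate dehydrogenase 2.8% ± 0.212 and 2.75% ± 0.0823. The groups overlapped in all 5 families, with exact two-sided permutation p-values of 0.2, 0.2, 0.4, 0.3 and 0.7 in that order (0.5, 0.5, 0.5, 0.5 and 0.7 after Benjamini-Hochberg adjustment over the 5). Without vehicle replicate 2 the differences in percentage points went from 4.62 to 2.72 for HK2, from 4.7 to 2.77 for PFKP, from 0.571 to 0.19 for ALDOC, from -3.47 to -1.02 for ENO2 and from -0.0544 to -0.176 for LDHA. The summed level of aldolase was 829, 493 and 710.2 TPM with vehicle and 1242, 919 and 1154 TPM with Aβ42, so the groups did not overlap. Summed enolase was at 1408 ± 281 and 1821 ± 124 TPM, while lactate dehydrogenase was at 1083 ± 9.66 and 1091 ± 24.5 TPM (SD, n = 3 each).

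The flux regulators gave mixed values, with a median log2 fold change of 0.25. At an unadjusted p under 0.05, 1 of 4 was higher, beside 12.4% of all tested genes. PDK1 and PDK3 are kinases that switch off pyruvate dehydrogenase and so keep pyruvate out of the mitochondrial cycle. PDK3 (Entrez gene 5165) was at 37.2, 37.6 and 37.1 CPM in vehicle and 50, 40.1 and 42.4 CPM in Aβ42. The vehicle libraries were nearly equal and all Aβ42 libraries lay above them, and the log2 fold change was 0.24 ± 0.08 (adjusted p = 0.121 in edgeR, 0.0402 with the block). PDK3 was the 1 flux regulator for which vehicle replicate 2 was not low, and its fold was 0.25 without that library and 0.14 without Aβ42 replicate 1. PDK1 (Entrez gene 5163) was at 69.4, 31.1 and 58.0 CPM in vehicle and 87.9, 73.0 and 77.6 CPM in Aβ42. Those groups did not overlap either, but vehicle replicate 2 was far below the rest. The log2 fold change of 0.59 ± 0.30 (adjusted p = 0.308 in edgeR, 0.249 with the block) was 0.32 without vehicle replicate 2. PFKFB4, which makes and degrades the sugar bisphosphate that activates phosphofructokinase, had a log2 fold change of 0.27 ± 0.18 (adjusted p = 0.405), or 0.08 without vehicle replicate 2 and 0.44 without vehicle replicate 1. Its relative PFKFB3 had -0.13 ± 0.17 (adjusted p = 0.681). For PFKFB3 the pairs disagreed, at -0.52, 0.43 and -0.28 for replicates 1 to 3, and its adjusted p with the block was 0.814. The fold was -0.40 without both libraries numbered 2 (adjusted p = 0.00115 in edgeR). That was the 1 alternative of 18 in which PFKFB3 passed, and its adjusted p ranged up to 0.967.

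HIF1A and EPAS1, the oxygen-labile subunits, had lower transcript values with Aβ42. HIF1A (Entrez gene 3091) was at 193, 206 and 198 CPM in vehicle and 175, 186 and 171 CPM in Aβ42. All Aβ42 libraries lay below all vehicle libraries. The log2 fold change was -0.17 ± 0.05 (adjusted p = 0.1 in edgeR, 0.0334 with the block), and it stayed between -0.20 and -0.14 when any 1 library was left out. EPAS1 (Entrez gene 2034), which encodes the alpha subunit also called HIF2A and is known from endothelium and astrocytes, was at 7.39, 11.7 and 6.77 CPM in vehicle and 4.63, 8.61 and 3.78 CPM in Aβ42. Both libraries numbered 2 were the highest of their group and the groups overlapped. The log2 fold change of -0.60 ± 0.35 had an adjusted p of 0.331 in edgeR and 0.00608 with the block. Leaving out vehicle replicate 2 gave -0.32, and leaving out Aβ42 replicate 2 gave -1.04 (adjusted p = 0.0192). Transcript values say nothing of HIF protein, which is controlled by its degradation.

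The prolyl hydroxylases did not pass the test in either fit. EGLN1, the main oxygen sensor of the family, had a log2 fold change of -0.01 ± 0.06 (adjusted p = 0.954). EGLN3, itself a HIF target (Entrez gene 112399), was at 27.3, 17.9 and 25.4 CPM in vehicle and 28.2, 31.9 and 26.8 CPM in Aβ42. Aβ42 replicate 3 fell within the vehicle range, and the log2 fold change was 0.30 ± 0.14 (adjusted p = 0.248 in edgeR), or 0.13 without vehicle replicate 2.

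**Figure D3:**
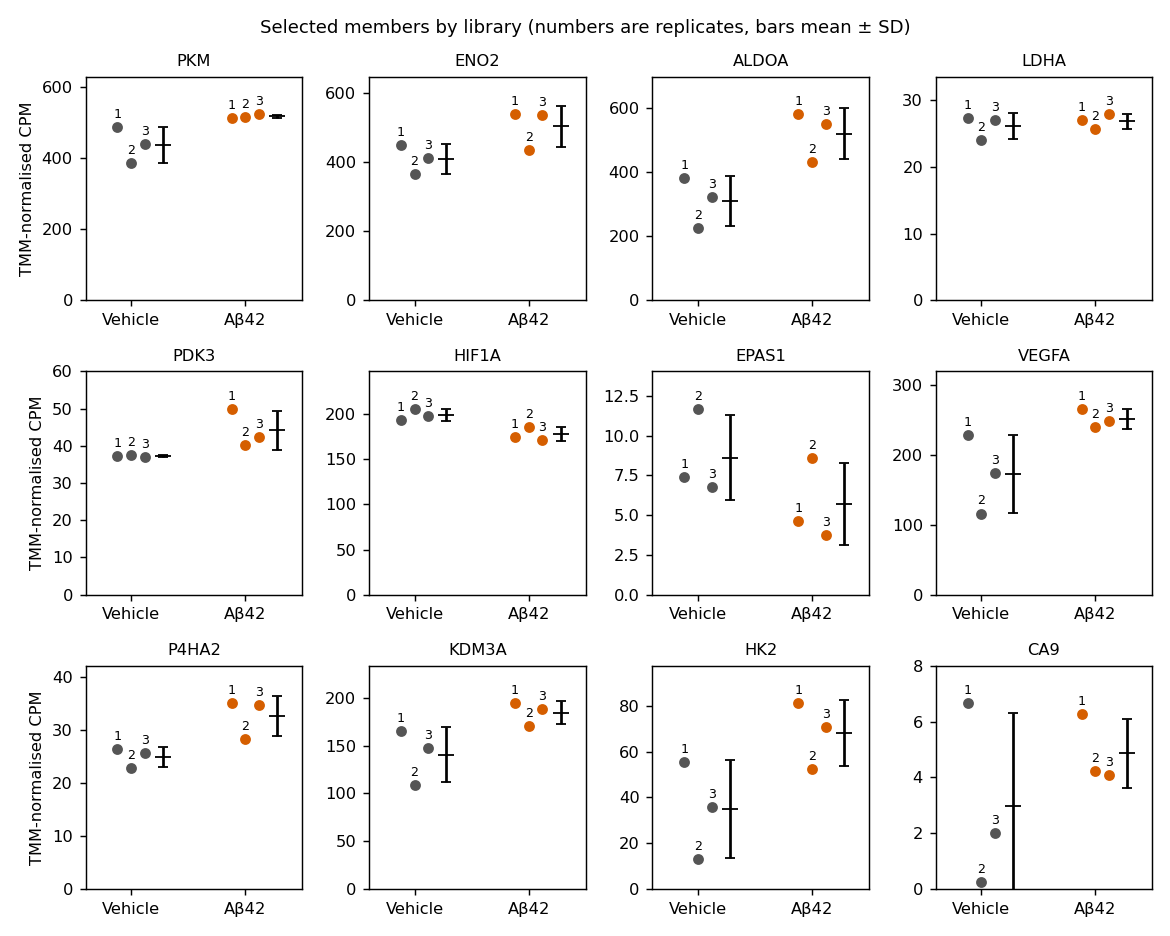
Each panel shows TMM-normalised CPM of 1 gene, with a point per library numbered by replicate and the group mean ± SD beside the points (n = 3), on axes that start at 0. The lower end of the vehicle bar of CA9 runs past the axis. The Aβ42 points lie above all vehicle points for PKM, ALDOA, PDK3, VEGFA, P4HA2 and KDM3A and below them for HIF1A.

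The 15 further HIF targets had a median log2 fold change of 0.39, from -0.01 (MXI1) to 0.96 (ADM), with 14 above 0. At an unadjusted p under 0.05, 5 were higher and 0 lower: BNIP3L, NDRG1, P4HA2, KDM3A and HILPDA. None passed adjustment in edgeR's test, and with the block 6 did: ADM, BNIP3L, NDRG1, P4HA2, KDM3A and HILPDA. Beside the 5, 12.4% of all tested genes were higher, and beside the 6, 7.12%. Without vehicle replicate 2 the median was 0.27, LOX lay below 0 and MXI1 above it.

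Among targets that act outside the cell, VEGFA, the main growth factor for blood vessels (Entrez gene 7422), was at 228, 116 and 174 CPM in vehicle and 266, 239 and 248 CPM in Aβ42. All Aβ42 libraries lay above all vehicle libraries, with vehicle replicate 2 the lowest by far. The log2 fold change was 0.54 ± 0.25 (adjusted p = 0.271 in edgeR, 0.239 with the block), and it was 0.32 without vehicle replicate 2. ADM, a vasodilator peptide, was at 7.39, 0.851 and 4.63 CPM in vehicle and 11.2, 4.51 and 9.48 CPM in Aβ42. The groups overlapped, and the log2 fold change of 0.96 ± 0.71 (adjusted p = 0.458 in edgeR, 0.0244 with the block) was 0.48 without vehicle replicate 2. CA9, the cell-surface carbonic anhydrase used as a hypoxia marker, was at 6.67, 0.243 and 2.01 CPM in vehicle and 6.28, 4.22 and 4.08 CPM in Aβ42. Vehicle replicate 2 held 4 counts of CA9, and vehicle replicate 1 was the highest of all libraries. Its log2 fold change of 0.70 ± 0.88 (adjusted p = 0.663) ranged from 0.16 without vehicle replicate 2 to 2.10 without vehicle replicate 1. ADM and CA9 are shown in full because their vehicle values spread most, a choice made after those values were seen.

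Among the collagen-modifying enzymes, P4HA2 (Entrez gene 8974), an alpha subunit of collagen prolyl hydroxylase, was at 26.4, 22.9 and 25.7 CPM in vehicle and 35.2, 28.4 and 34.7 CPM in Aβ42. The groups did not overlap, and vehicle replicate 2 was close to the other vehicle libraries. P4HA2 had the smallest p of the 40 genes, with a log2 fold change of 0.39 ± 0.10 (adjusted p = 0.0734 in edgeR, 0.00234 with the block), or 0.33 without vehicle replicate 2. Its adjusted p was under 0.05 in 7 of 18 alternatives and ranged from 0.00132 to 0.297. P4HA1, the other alpha subunit listed, had a larger and less even log2 fold change of 0.74 ± 0.32 (adjusted p = 0.256 in edgeR, 0.146 with the block). Its groups did not overlap, and the fold was 0.47 without vehicle replicate 2. LOX, which cross-links collagen, had 0.06 ± 0.19 (adjusted p = 0.878), and -0.14 without vehicle replicate 2.

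BNIP3 and BNIP3L are receptors that mark mitochondria for removal. BNIP3L (Entrez gene 665) was at 320.4, 264 and 306 CPM in vehicle and 362, 313 and 353 CPM in Aβ42. Aβ42 replicate 2 lay between vehicle replicates 1 and 3, and the log2 fold change was 0.21 ± 0.08 (adjusted p = 0.156 in edgeR, 0.00883 with the block). BNIP3 had 0.51 ± 0.26 (adjusted p = 0.301 in edgeR, 0.101 with the block). HILPDA, a lipid droplet protein that slows fat breakdown (Entrez gene 29923), was at 17.7, 9.67 and 13.7 CPM in vehicle and 23.1, 16.6 and 19.9 CPM in Aβ42. Aβ42 replicate 2 lay below vehicle replicate 1, and the log2 fold change was 0.54 ± 0.21 (adjusted p = 0.188 in edgeR, 0.00161 with the block). Without vehicle replicate 2 the folds were 0.13 for BNIP3L, 0.29 for BNIP3 and 0.34 for HILPDA.

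KDM3A, a histone demethylase that uses oxygen (Entrez gene 55818), was at 165, 109 and 148 CPM in vehicle and 195, 171 and 188 CPM in Aβ42. The groups did not overlap, and the log2 fold change was 0.39 ± 0.15 (adjusted p = 0.186 in edgeR, 0.00214 with the block). NDRG1, a stress-responsive gene (Entrez gene 10397), was at 187, 149 and 167 CPM in vehicle and 233, 171 and 233 CPM in Aβ42. Aβ42 replicates 1 and 3 were close together and above the vehicle range, and Aβ42 replicate 2 was inside it. For NDRG1 the log2 fold change was 0.34 ± 0.14 (adjusted p = 0.209 in edgeR, 0.00123 with the block), or 0.27 without vehicle replicate 2. The remaining targets did not pass under either fit: DDIT4, an inhibitor of mTOR signalling, with 0.67 ± 0.41, ANKRD37, an ankyrin repeat protein, with 0.38 ± 0.27, ERO1A, an oxidase of protein folding, with 0.14 ± 0.09, and MXI1, an antagonist of MYC, with -0.01 ± 0.05. Without vehicle replicate 2 the folds were 0.24 for KDM3A, 0.36 for DDIT4, 0.16 for ANKRD37 and 0.07 for ERO1A, and without vehicle replicate 1 they were 1.14 for DDIT4 and 0.65 for ANKRD37. When Aβ42 replicate 1 was left out, ANKRD37 was at 0.18 and ERO1A at 0.05, and when Aβ42 replicate 2 was, ERO1A was at 0.22.

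The motif that HIF is known to bind has the core ACGTG or GCGTG, and RefSeq promoter windows (GRCh38.p14, 250 bases before to 50 after an annotated start) were searched for both cores on both strands. Windows were found for 36 of the 40 genes, 64 in all because some genes have several starts. VEGFA, BNIP3L, NDRG1 and HILPDA had none. At least 1 core was found for 33 of the 36 genes (91.7%), where 69.7% of 11307 tested genes with a window held one, and the share was 16 of 17 for the enzymes and 10 of 11 for the further HIF targets. Counted by window the share was 45 of 64 (70.3%), beside 59.5% of the 16797 windows of tested genes, with 23 of 37 (62.2%) for the enzymes and 14 of 16 (87.5%) for the further targets, so the difference was smaller by window than by gene. The core ACGTG alone was found for 63.9% of the genes, beside 31.9% of tested genes. PGAM1, EGLN3 and P4HA2 held neither core in their window.

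The 250 bases before the start are shown for 1 enzyme of neurons, 1 flux regulator, 1 further target and LDHA, the gene with the motif several times and a fold change near 0. All are on the plus strand of GRCh38.p14, written 5′ to 3′, and capitals mark the cores on either strand. A CACGTG counts as a match on each strand. The windows are chr12:6914330-6914579 (ENO2), chr2:172555840-172556089 (PDK1, its second listed start), chr2:86441121-86441370 (KDM3A, its first) and chr11:18394313-18394562 (LDHA, its first).
ENO2: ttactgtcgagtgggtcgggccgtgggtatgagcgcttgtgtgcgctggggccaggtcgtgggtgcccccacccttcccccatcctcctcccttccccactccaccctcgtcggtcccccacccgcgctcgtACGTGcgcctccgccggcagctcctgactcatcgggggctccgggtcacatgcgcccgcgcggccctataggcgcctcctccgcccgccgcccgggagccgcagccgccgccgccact
PDK1: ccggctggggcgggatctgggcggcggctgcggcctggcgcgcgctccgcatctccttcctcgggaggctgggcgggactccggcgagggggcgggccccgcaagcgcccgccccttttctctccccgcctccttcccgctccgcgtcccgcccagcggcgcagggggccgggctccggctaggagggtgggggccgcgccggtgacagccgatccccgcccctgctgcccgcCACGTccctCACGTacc
KDM3A: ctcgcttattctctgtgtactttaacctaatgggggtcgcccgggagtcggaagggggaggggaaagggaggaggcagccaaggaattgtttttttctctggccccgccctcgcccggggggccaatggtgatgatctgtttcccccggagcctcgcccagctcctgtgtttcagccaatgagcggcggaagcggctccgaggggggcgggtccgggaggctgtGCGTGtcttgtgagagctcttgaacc
LDHA: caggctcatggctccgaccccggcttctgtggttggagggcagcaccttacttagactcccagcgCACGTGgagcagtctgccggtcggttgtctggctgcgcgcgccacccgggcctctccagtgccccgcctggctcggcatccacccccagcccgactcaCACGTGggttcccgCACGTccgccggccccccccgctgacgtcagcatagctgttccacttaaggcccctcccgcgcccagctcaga
ENO2 held 1 core, with its first base at -118 from the start, PDK1 held 2 at -17 and -8, and KDM3A held 1 at -26. LDHA held 5 matches in these bases, at -185, -184, -87, -86 and -73, with a log2 fold change of 0.04. HK2 and BNIP3, with 6 matches before the start in 1 window, had log2 fold changes of 0.97 and 0.51, and ALDOC, with 5, had 0.90. LOX and MXI1 also held several matches over their windows, with log2 fold changes of 0.06 and -0.01. A relation between the number of matches and the fold change was not tested. A match is a property of the letters, and binding was not measured.

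The enzymes and the further HIF targets were compared with each other. Their median log2 fold changes were 0.26 and 0.39, a difference of -0.13, which lay between -0.27 and -0.10 over all 18 alternatives and was -0.11 without vehicle replicate 2. As a mean deviation of log2 CPM from each gene's mean over the 6 libraries, the enzymes stood at 0.05, -0.45 and -0.13 with vehicle and at 0.22, 0.05 and 0.25 with Aβ42. The further targets stood at 0.21, -0.85 and -0.16 in vehicle and at 0.46, 0.07 and 0.27 in Aβ42. Vehicle replicate 2 was the lowest library on both scores, and it was lower for the targets than for the enzymes. The difference between the groups was 0.35 for the enzymes and 0.54 for the targets with all libraries, and 0.22 and 0.24 without vehicle replicate 2. The enzyme score minus the target score was -0.16, 0.40 and 0.03 in vehicle and -0.24, -0.02 and -0.02 in Aβ42, so the groups overlapped. The group difference of that quantity was -0.18 with all libraries and -0.03 without vehicle replicate 2. By pair of replicate number, the median log2 difference of the enzymes was 0.08, 0.40 and 0.34 and that of the targets 0.24, 0.65 and 0.43.

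**Figure D4:**
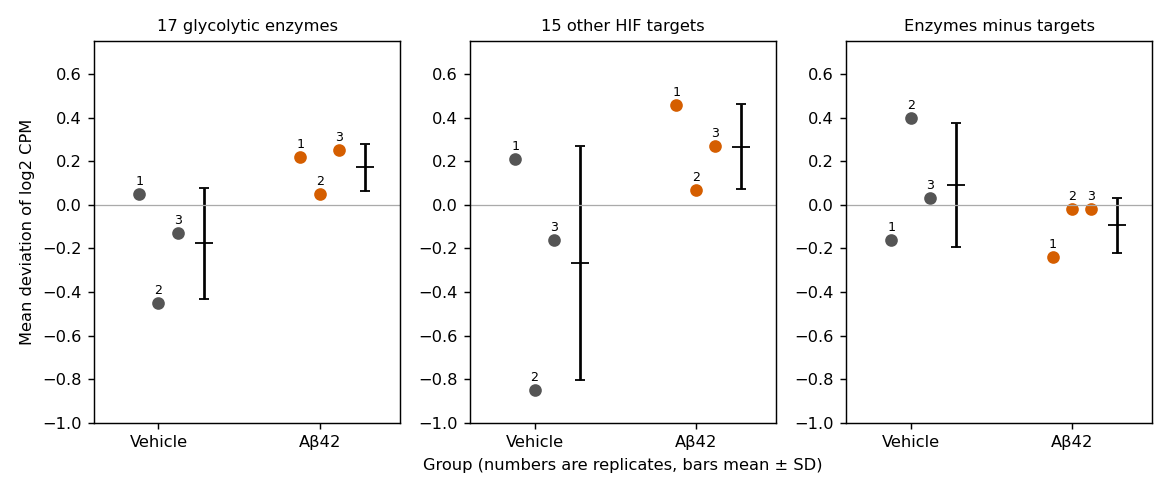
The vertical axis is the mean deviation of log2 CPM from each gene's mean over the 6 libraries. The panels show the 17 enzymes, the 15 further HIF targets and their difference, with points numbered by replicate and group mean ± SD (n = 3). Vehicle replicate 2 is the lowest point for both sets, at -0.45 and -0.85, and the highest for the difference, at 0.40.

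Other genes of the same pathways were taken from lists that share no gene with the 40. Of 13 tested genes of glycolysis and its side steps 0 were higher and 1 was lower at an unadjusted p under 0.05, with a median of -0.01. Over all tested genes 12.4% were higher and 11.5% lower at such a p. The lower gene of the 13 was TIGAR, a phosphatase that slows glycolysis (-0.25 ± 0.07, adjusted p = 0.0898 in edgeR, 0.0317 with the block). MINPP1, an inositol polyphosphate phosphatase, had -0.11 ± 0.08, and HKDC1, a gene of the hexokinase family, had 0.34 ± 0.17. Of 15 genes of pyruvate entry into mitochondria 2 were higher, PDHA1 (a pyruvate dehydrogenase subunit, 0.15 ± 0.06) and ME2 (the mitochondrial malic enzyme, 0.12 ± 0.05), and 3 were lower, among them ME1 (the cytosolic malic enzyme, -1.18 ± 0.41) and DLD (a shared dehydrogenase subunit, -0.12 ± 0.05), with a median of 0.07. ME1 held only 3 to 19 counts in a library, and its difference was -0.56 on the log2(TPM + 1) scale. None of these 15 passed adjustment in either fit. The number at an unadjusted p in that list was 1 when vehicle replicate 2, Aβ42 replicate 1 or Aβ42 replicate 3 was left out. It was 3 when vehicle replicate 3 was, and 10 when Aβ42 replicate 2 was. Without vehicle replicate 2, 7.25% of all tested genes were higher and 6.50% lower at such a p. In either direction the shares were 15.1% and 13.4% without Aβ42 replicates 1 and 3. They were 17.6% without vehicle replicate 3 and 37.0% without Aβ42 replicate 2.

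Of 13 further genes of oxygen sensing 4 were higher and 3 lower, beside 12.4% and 11.5% of all tested genes, with a median of -0.02. HIF3A, a further HIF alpha subunit, had 0.62 ± 0.16 (adjusted p = 0.0906 in edgeR, 0.000129 with the block), and ARNT, the beta subunit, had 0.29 ± 0.10 (0.125 and 0.0103). Its neural relative ARNT2 had -0.30 ± 0.09 (0.112 and 0.00226), and the coactivator EP300 had -0.22 ± 0.05 (0.0722 and 0.0101). The number at an unadjusted p was 4 without vehicle replicate 2 or 3 and 3 without Aβ42 replicate 1 or 3. Of 34 tested genes in a longer list of HIF targets 10 were higher and 0 lower, with a median of 0.22. With the block 11 were higher after adjustment, beside 7.12% of all tested genes. PPP1R3C, which directs a phosphatase to glycogen, had 0.92 ± 0.18 (adjusted p = 0.0697 in edgeR, 0.000309 with the block), and ALKBH5, an RNA demethylase, had 0.35 ± 0.08 (0.0734 and 0.00126). STC1, a secreted glycoprotein, had -0.16 ± 0.13. In that list 6 genes were higher at an unadjusted p without vehicle replicate 2 (7.25% of all tested genes) and the median was 0.12. Leaving out vehicle replicate 1 gave 18 and Aβ42 replicate 1 gave 6, where 21.6% and 15.1% of all tested genes had such a p in either direction.

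Some markers of cell types also differed between libraries or groups. In bulk RNA, fewer cells of a type and less RNA per cell cannot be told apart. The summed CPM of 8 choroid plexus markers was 496, 1022 and 536 with vehicle and 546, 948 and 435 with Aβ42, high in both libraries numbered 2. TTR made up most of this sum. In both groups TTR, CLIC6, KCNJ13 and OTX2 were highest in the library numbered 2. That held in vehicle only for FOLR1, SLC4A5 and TRPM3, and in Aβ42 only for AQP1. The median of the 40 genes in the 2 libraries numbered 2 differed from the other libraries of their group by -0.38 (vehicle) and -0.18 (Aβ42) on the log2 scale. The 7 markers of cycling cells were all lower with Aβ42 at an unadjusted p under 0.05, with sums of 615 to 726 in vehicle and 409 to 562 in Aβ42. Radial glia markers summed to 2438 to 2601 in vehicle and 2661 to 2791 in Aβ42, astrocyte markers to 782 to 876 and 618 to 818, and neuron markers to 6443 to 6880.2 and 6042 to 6363. VIM and FABP7 made up most of the radial glia sum and SLC1A3 most of the astrocyte sum, and single markers went both ways. At an unadjusted p under 0.05, 1 radial glia marker was higher (FABP7) and 2 were lower (NES and HOPX). Of the astrocyte markers 1 was higher (ALDH1L1) and 2 were lower (S100B and SLC1A3), and of the neuron markers 1 and 3. Over all tested genes the shares were 12.4% and 11.5%. Mesenchyme markers summed to 42.6 to 80.1 and 33.5 to 45.7, with the highest value in vehicle replicate 2. Endothelial markers summed to 7.32 to 9.55 and 6.24 to 9.62, and microglia markers to 0.421 to 0.793 and 0.366 to 0.72, with TREM2, TYROBP, C1QA and C1QB at 0 in every library. The part of these cell types in the values of the 40 genes was not tested.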

How the data were processed

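Polyadenylated RNA of 6 organoid libraries was sequenced from stranded libraries, per the labels' protocols. The authors deposited 1 table that gives each gene an estimated count and a TPM in every library. The submitters' processing notes name FastQC, STAR 2.7.11b, featureCounts 2.0.6 and GRCh38, without roles. The annotation, the strand setting and the treatment of shared reads are not given in the sources used here. Of the deposited counts, 86.9% to 87.5% per library were whole numbers, so all were treated as estimated counts and rounded. Among the 40 genes, GPI, ALDOA, ANKRD37 and P4HA2 had values that were not whole in every library.

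After filterByExpr and TMM scaling, the groups were compared in edgeR 4.0.16 (R 4.3.3) by its robust quasi-likelihood test without a block, two-sided, with Benjamini-Hochberg adjustment over 13842 genes and a threshold of 0.05. The test was tried on simulated data first. TMM factors were close to 1, and the biological coefficient of variation was 6.75%. Alternatives were RLE scaling, no filter, a mean of at least 10 counts, DESeq2 1.42.0, limma 3.58.1 (voom, voom with quality weights, and log2 of the deposited TPM plus 1 or 0.1), the replicate number as a block, removal of a trend with gene length, both together, each library left out, and both libraries numbered 2 left out. Scores used log2 CPM with a prior count of 2. No gene identity was inferred beyond the symbols in the table.

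Chi-square values per gene between libraries were 3.16 to 21.1, so none were duplicates. The smallest value was between libraries of opposite groups, vehicle 1 and Aβ42 2. Aβ42 2 stood at 3.16, 7.7 and 4.58 from vehicle 1 to 3 and at 9.4 and 8.48 from Aβ42 1 and 3. By this measure it lay nearer to each vehicle library than to its own group. Its quality weight in limma-voom, 0.395, was the lowest of the 6 libraries. Deviations from group means correlated at 0.181, 0.388 and 0.129 between libraries of the same number (12186 genes averaging 50 counts or more), all above 0.1, so libraries of equal number were treated as pairs. Libraries of different number correlated at -0.302 to 0.177, and vehicle 3 with Aβ42 1 (0.177) and vehicle 1 with Aβ42 3 (0.154) both exceeded the value for number 3, so numbers 1 and 3 were not told apart. This pairing comes from the data and not from the labels, and a deviation shared by the libraries numbered 2 alone would also raise the other two values.

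The 40 genes, the lists and the rules were chosen with earlier results of these data known. Every one of the 40 is named. Values per library are given for HIF1A, EPAS1, LDHA, LDHB and VEGFA, and for the members of each role with the smallest unadjusted p (4 enzymes, 2 flux regulators, 2 of oxygen sensing, 5 further targets). From each further list the 2 genes with the smallest p in each direction are named. Some genes outside the 40 are not reported here. GAPDH, ALDOA, HK2, ADM and CA9 were added after their values were seen. No protein sequences were used here.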

Additional observations from a re-analysis of the deposited data

How the results depend on the processing

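Of the 40 genes, 35 kept the sign of their log2 fold change in all 18 alternatives. The signs that turned were near 0. On both TPM scales PFKL and LDHA were at -0.02. With the length trend removed EGLN1 was at 0.00, and likewise with that and the block. Without both libraries numbered 2, LOX was at -0.11 and MXI1 at 0.02. When 1 library was left out, PFKL ranged from 0.00 (Aβ42 replicate 3 out) to 0.08, and LDHA from -0.02 (vehicle replicate 2 out) to 0.07. EGLN1 ranged from -0.06 to 0.05, turning when vehicle replicate 1 (0.05) or Aβ42 replicate 3 (0.02) was out. LOX ranged from -0.14 to 0.20, turning when vehicle replicate 2 (-0.14) or Aβ42 replicate 1 (-0.04) was out. MXI1 ranged from -0.03 to 0.02, turning when vehicle replicate 2 (0.02) or Aβ42 replicate 3 (0.01) was out. Over the alternatives the median of the enzymes lay between 0.16 (vehicle replicate 2 out) and 0.37 (vehicle replicate 1 out), that of the further targets between 0.27 and 0.65 (the same 2 left out), and their difference between -0.27 (vehicle replicate 1 out) and -0.10 (Aβ42 replicate 1 out).

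Counts of calls moved more. Over all genes, 0 passed adjustment with all libraries and no block, and 360 passed without a filter, 804 with DESeq2, 2543 with quality weights, 1962 with the replicate block, 1994 when the length trend was also removed, 2316 without both libraries numbered 2, and 0 to 3224 when 1 library was left out. Of the 40 genes, 14 had an unadjusted p under 0.05, and 9 did without a filter, 24 with the block, 24 with the block and the length trend removed, 24 without both libraries numbered 2, and 4 to 29 when 1 library was left out. Over all tested genes, 1716 were higher and 1586 lower at such a p, of 13842. Without a filter 1779 and 1706 of 17374 were, and with the block 2068 and 1992 of 13842. With the length trend also removed 2097 and 2048 were, and without both libraries numbered 2, 2195 and 2181 of 13877. After adjustment 0 of the 40 passed, and 1 did without a filter, 6 with DESeq2, 8 with quality weights, 18 with the block, 17 with the block and the length trend removed, 19 without both libraries numbered 2, and 0 to 8 when 1 library was left out. With the block, 2 of the other glycolysis genes and 16 of the longer HIF target list had an unadjusted p under 0.05, against 1 and 10. Leaving out 1 library gave 1 to 2 in the former list, 1 to 10 for pyruvate entry, 3 to 7 for oxygen sensing and 6 to 18 for the longer HIF list. The share of all tested genes with such a p in either direction then ran from 13.4% to 37.0%. The LDHA share differed by -0.0544 percentage points with all libraries and by -0.176 to 0.0136 when 1 library was left out, reversing without vehicle replicate 3 (0.0136). The cause of these moves was not tested. With 3 libraries a group, an exact test cannot give a p under 0.1, and CA9, at 4 counts in its lowest library, was limited by depth.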
